A study of Chlamydomonas reinhardtii with 90 samples.

Results

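Cultures of Chlamydomonas reinhardtii that had spent 4 h at 35 °C were compared with cultures of the same treatment series sampled before the heat began. Chlamydomonas is a single-celled green alga that can live on light, on acetate or on both. The wild-type strain CC1690 (21gr, mt+) was used in all groups, and no other genotype enters. Every culture grew in a photobioreactor on acetate medium under constant light, was kept in steady growth by automatic dilution, and was adapted to 25 °C before the temperature was raised. The comparison rests on 6 of the 90 polyA RNA libraries of the series, namely 3 from heat at 35 °C for 4 h and 3 from the pre-heat time point, lettered A, B and C. It takes in all 15541 genes that passed a filter on low counts, of 17741 genes in the table. The low-count filter and the main fit use all 90 libraries. Beyond this, further libraries are tested only where the 4 h sample is set beside other samples. These are 3 libraries at 2 h and 3 at 8 h of 35 °C, its neighbours in time. The others are 3 libraries after 4 h at 40 °C, the acute treatment, and their own 3 pre-heat libraries. The labels do not say whether the letters are separate photobioreactors. The p-values therefore measure the spread between samples, as estimated in the fit over all 90 libraries and not from the 6 alone. Bulk RNA cannot tell a shift in the share of cells at a given stage from a shift within each cell.

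Chlamydomonas cells grow through a long phase before DNA replication and then divide by rapid rounds of DNA replication and mitosis, in which the genes for replication, mitosis, histones, chloroplast division and the new cell walls are switched on in succession. Acetate is activated to acetyl-CoA and passes through the glyoxylate cycle, which makes 4-carbon acids from acetyl-CoA, and gluconeogenesis then turns these acids into sugar phosphates. In heat, heat shock factors drive chaperone genes, whose products keep other proteins folded.

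The 6 libraries held 12330498 to 25961940 reads in genes. Levels are given as normalised CPM, which is a gene's reads relative to the library total after scaling each library by edgeR's TMM factor. TMM assumes that most genes do not change. The factors were 0.998 to 1.07 before heat and 0.837 to 0.888 at 4 h, and the 10 most abundant genes took 8.21% to 8.69% of the reads before heat and 11.5% to 13.1% at 4 h. The scaling therefore mattered. The median log2 change over all genes was −0.02 with TMM and −0.29 when library size alone was used, and changes below are relative to the TMM median.

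A gene was called changed when its adjusted p in edgeR's quasi-likelihood test was under 0.05, its fold change exceeded 2 and its mean TPM differed by at least 1. After 4 h at 35 °C, 367 genes were called higher (2.36% of those tested) and 960 were called lower (6.18%), together 8.54% of the genes tested. Called genes were thus mostly lower, with 27.7% of them higher, a share that fell to 13.2% with library size alone (210 higher, 1378 lower). The normalised CPM of the groups did not overlap in 25.1% of all genes in the higher direction and in 27.6% in the lower direction. At an unadjusted p under 0.05, 3301 of the 15541 genes tested were higher and 3723 lower. At an adjusted p under 0.05 these counts were 2637 and 3098. Among the largest changes heat library A was mostly the least changed. It was the highest of the 3 in 14 of the 15 largest falls and the lowest in 10 of the 15 largest rises. Without both A libraries the counts were 460 higher and 1068 lower, and of the genes named here HLA3, PCK1 and HFO40 lost their call while MES1 gained one.

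**Figure D1:**
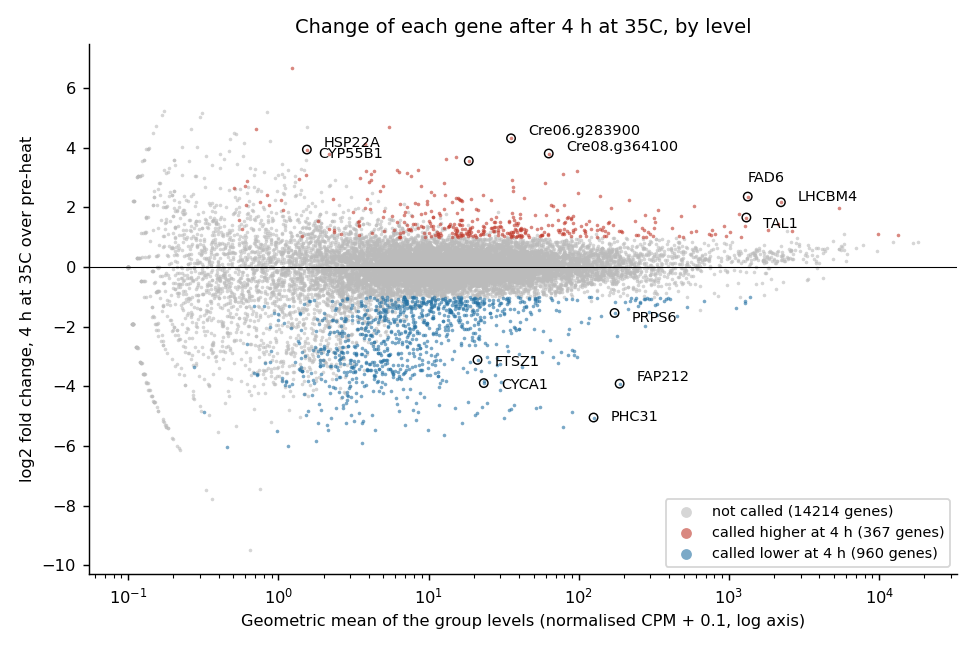
Log2 fold change of every tested gene after 4 h at 35 °C against the geometric mean of its 2 group levels in normalised CPM (log axis), with called genes in colour and 12 genes named in the text circled. The 960 genes called lower include PHC31 at −5.05 on the log2 scale, and the 367 called higher include FAD6 at 2.36 and Cre06.g283900 at 4.32.

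The genes of DNA replication and mitosis were far lower after 4 h at 35 °C than before heat. Of 122 cell cycle genes, a list that the study drew up with these libraries in hand and that is therefore no independent evidence of direction, 69 were called lower and the median log2 change was −1.62, against −0.02 over all genes. The pre-heat and 4 h libraries did not overlap in 95 of them in the lower direction. CYCA1 (Cre03.g207900), an A-type cyclin, stood at 103, 91.9 and 71.5 normalised CPM in pre-heat libraries A, B and C and at 10.0, 4.39 and 3.54 after 4 h, a log2 change of −3.89 ± 0.61 (SE, adjusted p = 4.2e-07). CYCB1 (Cre08.g370401), the B-type cyclin of mitotic entry, stood at 91.4, 106 and 90.2 before heat and at 12.95, 5.57 and 5.08 at 4 h, a change of −3.61 ± 0.77 (adjusted p = 0.00013). The groups lay far apart in both cyclins, which were named for the size of their fall, so that this gap is largely built in. A was the highest of the 3 heat libraries in each.

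Lists of genes that act at successive steps of division were each low at 4 h. Among 14 genes of mitosis and chromosome structure, 10 were called lower with a median of −3.25, including SMC2 (Cre02.g086650), a condensin subunit that compacts chromosomes, which went from 38.2, 42.5 and 39.6 normalised CPM to 4.80, 2.28 and 2.45 (−3.65 ± 0.37, adjusted p = 5.9e-12). CDC20 (Cre09.g399911), which activates the anaphase-promoting complex, went from 22.3, 26.3 and 23.5 to 3.73, 1.74 and 1.63 (−3.34 ± 0.33, adjusted p = 2.7e-12). In both genes the highest heat library lay far under the lowest pre-heat library. Both were named for the size of their fall, so that this gap is largely built in. Of 15 genes of replication licensing, which load the replicative helicase onto origins, 13 were called lower with a median of −2.20, and the groups were apart in all 15 of them. MCM3 (Cre06.g295700), a subunit of that helicase, fell from 93.7, 93.8 and 82.3 to 19.8, 7.86 and 10.5 (−2.81 ± 0.39, adjusted p = 1.6e-08). CDC45 (−3.40 ± 0.41), the helicase cofactor, CDC6 (−3.02 ± 0.40), which loads the helicase, and the origin recognition subunit ORC4 (−2.64 ± 0.34) were also called lower. MCM8 (Cre16.g665950), a relative of the MCM helicase, had, after CYCA1, the next largest called fall of the cell cycle list (−3.76 ± 0.42), from a mean of 8.22 ± 1.43 (SD, n = 3) to 0.604 ± 0.298 normalised CPM. The lists for licensing, mitosis, the replication fork and plastid division were all taken from the study's cell cycle sheet. They too are no independent evidence of direction.

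Of 19 genes that supply and work the replication fork 12 were called lower with a median of −1.41, and all 19 had a log2 change under 0. RIR2 (Cre12.g491050), the small subunit of the ribonucleotide reductase that makes deoxynucleotides, was at 252, 283 and 204 normalised CPM before heat and at 36.3, 35.3 and 33.3 at 4 h (−2.82 ± 0.37, adjusted p = 5.7e-09). In this gene the 3 heat libraries differed little from each other. The single-strand binding subunit RFA3 (−3.03 ± 0.33), the dTMP kinase TMPK (−2.71 ± 0.29) and TOP2, the topoisomerase that untangles sister DNA (−3.18 ± 0.42), were called lower as well. Of the histones only 27 of 70 listed genes passed the filter and 3 were called, which were HTV1 of the H3 type, from a mean of 22.4 ± 1.05 to 2.73 ± 1.29 normalised CPM, and the H2A-type gene Cre13.g567700 (−2.32 ± 0.31) on the lower side, and HFO40, which stayed under 1 normalised CPM, on the higher side. HFO40 lost its call with library size alone (adjusted p = 0.088) and without any 1 of 4 of the 6 libraries. Of the 27 histone genes tested, 23 had a log2 change under 0 and 4 had one above 0. At an adjusted p under 0.05, 8 were lower and 1 was higher. The groups did not overlap in 11 of them in the lower direction and in 2 in the higher direction. Histone genes come in near-identical copies, so that their counts are uncertain.

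Division genes of the chloroplast were low at 4 h as well. All 6 members of the plastid division list were called lower (median −3.11). FTSZ1 (Cre02.g118600), which forms the ring at which the chloroplast is pinched, measured 59.1, 66.4 and 61.0 normalised CPM before heat and 12.1, 3.29 and 5.90 at 4 h (−3.11 ± 0.42, adjusted p = 1.1e-08). FTSZ2 fell by 2.54 ± 0.38 on the log2 scale. The genes that place the ring, MIND1 (−3.03 ± 0.44), MINE1 (−3.51 ± 0.37) and MINE2 (−3.28 ± 0.42), and ARC6 (−3.11 ± 0.42), which anchors it in land plants, lay in the same range. DRP8 (Cre10.g433050), a dynamin-related protein of the cell cycle list, went from a mean of 33.8 ± 4.05 to 2.74 ± 1.41 normalised CPM. In all 6 plastid division genes and in DRP8, A was the highest heat library. The same held for 14 of the 15 licensing genes, 17 of the 19 fork genes and 12 of the 14 mitosis genes.

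**Figure D2:**
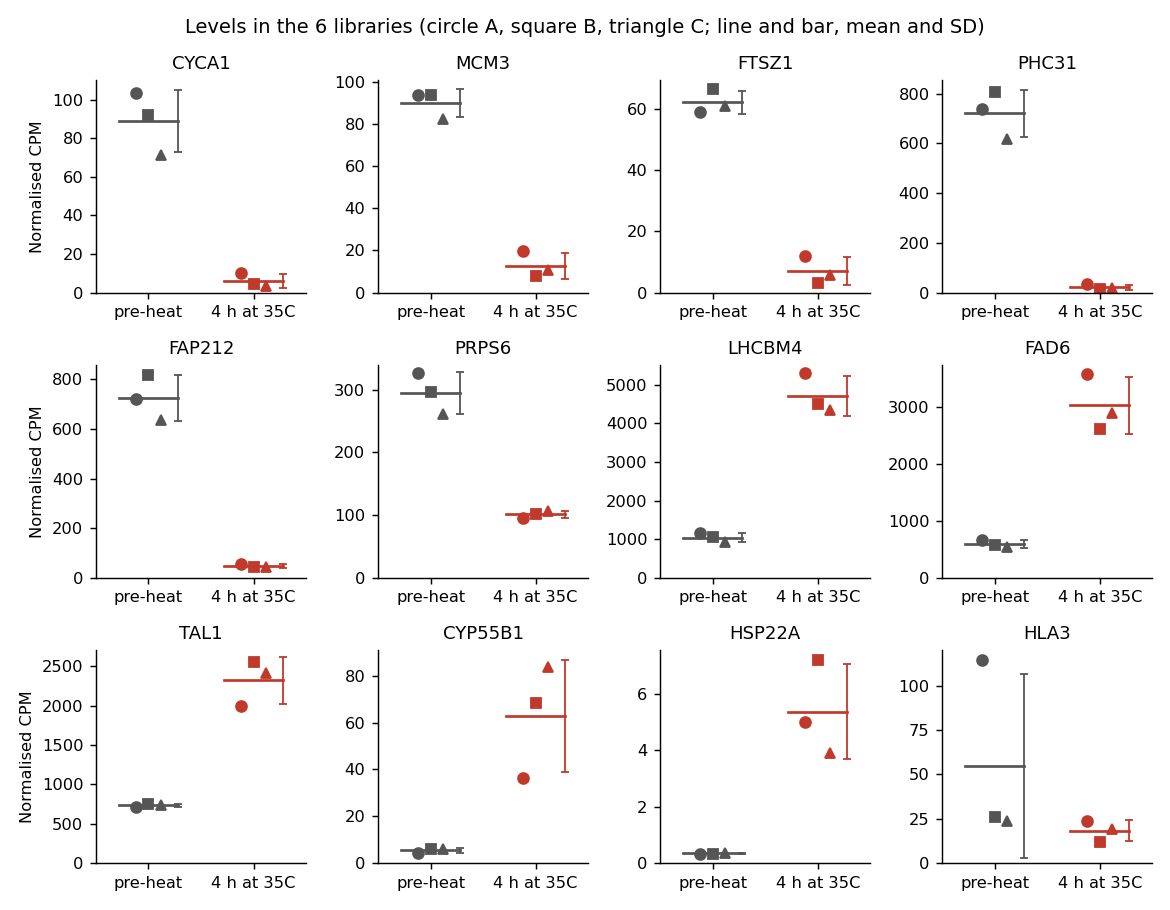
Normalised CPM of 12 genes in the 3 pre-heat and the 3 heat libraries at 35 °C (circle A, square B, triangle C), with each group's mean as a line and its SD as a bar, each panel on its own linear axis from 0. The groups are apart in 11 panels, and in HLA3 pre-heat library A (114) stands far above libraries B and C (26.0 and 23.5). Many of these genes were named for the size of their change, so the gaps are no further support.

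Cell wall genes held 3 of the 15 largest falls (PHC31, PHC19 and PHC15). Of 35 genes, again a list assembled by the study on these libraries, 22 were called lower with a median of −2.94. Their summed level was 3739 to 4646 normalised CPM in the pre-heat libraries and 388 to 579 at 4 h. Pherophorins are hydroxyproline-rich glycoproteins of the algal wall. PHC31 (Cre17.g710300) stood at 738, 806 and 618 normalised CPM before heat and at 33.8, 13.4 and 17.9 after 4 h (−5.05 ± 0.81, adjusted p = 6.2e-07), and PHC15 (Cre09.g396100) went from 500, 520 and 429 to 27.8, 9.69 and 11.9 (−4.87 ± 0.74, adjusted p = 1.5e-07). PHC19 (−4.98 ± 0.81), PHC22 (−4.77 ± 0.91), PHC21 (−4.70 ± 0.46) and GAS28 (−4.72 ± 0.84), a stress-induced wall glycoprotein, fell by similar amounts. Pherophorins form a family of related copies, and reads that match several copies could be lost or shared in counting, so that the split between members is uncertain. Other members fell less, such as PHC5 with −1.49 ± 0.26 and the wall protein ISG-C4 with −1.01 ± 0.23, which was not called by DESeq2 or without 4 h replicate B (−0.85) or pre-heat replicate C.

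Flagellar genes moved less as a group. Of 33 genes, 6 were called lower, the median log2 change was −0.70 and the groups did not overlap in 26 genes in the lower direction. With library size alone 13 were called lower. FAP212 (Cre02.g077850), a flagellar associated protein, was the exception in size, with 720, 820 and 635 normalised CPM before heat and 55.8, 43.1 and 45.3 at 4 h (−3.91 ± 0.66, adjusted p = 1.8e-06). The beta-tubulin gene TUB2 (−1.21 ± 0.33), which has a near-identical sister gene, IFT140 (−1.26 ± 0.32), a subunit of the particle that carries cargo along the flagellum, and the flagellar associated gene Cre17.g708750 (−1.65 ± 0.57) were called lower by smaller amounts. In Cre17.g708750 the heat libraries spread widely, at 492, 120 and 150 normalised CPM, and its call was lost without 4 h replicate B, 4 h replicate C or pre-heat replicate A (−1.40 to −1.31).

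Of 30 plastid ribosomal proteins 17 were called lower, the median was −1.04, and in 29 of them the groups did not overlap in the lower direction. PRPS6 (Cre12.g520600), a protein of the small plastid subunit, stood at 327, 296 and 261 normalised CPM before heat and 95.2, 102 and 107 at 4 h (−1.54 ± 0.16, adjusted p = 1.9e-11). PRPS10 (−1.39 ± 0.16), PRPS5 (−1.35 ± 0.15) and PRPL17 (−1.32 ± 0.18) were next, and over the whole list the change ran from −0.04 to −1.54. All 30 changes were under 0 and 29 had an adjusted p under 0.05, so that 12 genes missed the call by its other criteria. Of 54 cytosolic ribosomal proteins 0 were called by edgeR or by DESeq2. Their median was 0.34 (0.082 with library size alone), 23 had an unadjusted p under 0.05 on the higher side, and under library size alone 0 were called as well. At an adjusted p under 0.05 16 were higher, and no change in the list exceeded 0.57. In the ribosome biogenesis list the ABC-type ATPase gene Cre04.g222700 was called higher, from 2643, 2832 and 2592 to 10574, 9796 and 11812 normalised CPM (2.00 ± 0.17, adjusted p = 5.8e-14), whereas the list's median was −0.58.

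**Figure D3:**
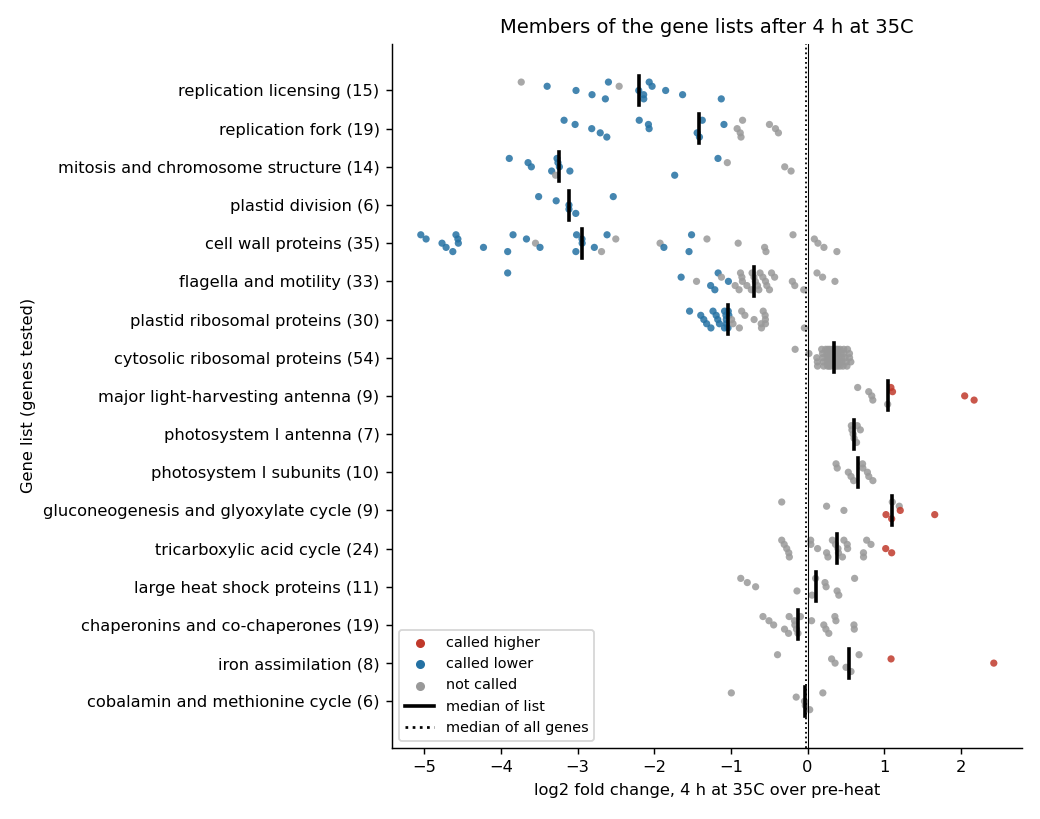
Log2 fold change after 4 h at 35 °C of each tested member of 17 gene lists (red called higher, blue called lower, grey not called), with the list median as a black bar and the median of all genes as a dotted line. Replication, mitosis, plastid division and wall lists have medians between −1.41 and −3.25, plastid ribosomal proteins lie at −1.04, cytosolic ones at 0.34 and the major antenna at 1.05.

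The genes of the major light-harvesting antenna lay higher at 4 h. LHCBM proteins bind the chlorophyll of the antenna of photosystem II. The groups were apart in the higher direction for all 9 LHCBM genes (median 1.05), and 4 were called, in a list that the study took from its own pathway sheet. LHCBM4 (Cre06.g283950) rose from 1163, 1044 and 921 normalised CPM to 5297, 4490 and 4334 (2.17 ± 0.27, adjusted p = 8.4e-10), and LHCBM8 (Cre06.g284250) from 324, 303 and 238 to 1345, 1058 and 1182 (2.05 ± 0.24, adjusted p = 3.0e-10). LHCBM2 (1.11 ± 0.14) and LHCBM3 (1.09 ± 0.16) lay just above the threshold of 1 and fell below it with library size alone, which left 2 members called. The uncalled members had changes of 0.85 ± 0.15 (LHCBM7), 0.84 ± 0.18 (LHCBM6), 0.80 ± 0.15 (LHCBM1), 0.65 ± 0.18 (LHCBM5) and 1.05 ± 0.67 (LHCBM9, which reached 5.03 normalised CPM at most). LHCBM genes are near-identical in places, so reads may be split unevenly between them.

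Genes of the photosystems had smaller changes, all above 0. By edgeR and by DESeq2, 0 members were called among 7 genes of the photosystem I antenna (all 7 with an unadjusted p under 0.05 on the higher side, median 0.61), 10 photosystem I subunits (9 of them, median 0.66) and 5 photosystem II subunits (5 of them, median 0.55). In the same order 7, 9 and 4 also had an adjusted p under 0.05, and all changes stayed under a fold of 2. With library size alone the medians were 0.34, 0.39 and 0.28. ANR1 (Cre03.g164000), a partner of cyclic electron flow, was called higher, from 612, 648 and 625 normalised CPM to 2270, 1997 and 2198 (1.78 ± 0.14, adjusted p = 4.9e-16). Of the chlorophyll synthesis genes CHL27/CRD1, an enzyme of the step to protochlorophyllide, was called higher (1.13 ± 0.22). Of 10 tested photoprotection genes 2 were called lower, while 4 had a change above 0 and the summed level of the list went from 355 to 405 normalised CPM before heat to 446 to 565 at 4 h. LHCSR1 (Cre08.g365900), which dissipates excess excitation, stood at 24.6, 16.4 and 20.8 before heat and 3.66, 4.29 and 0.863 at 4 h (−2.89 ± 0.62, adjusted p = 0.00014), and ELI6, an antenna relative induced by strong light, changed by −2.05 ± 0.48. These lists too are the study's own.

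The fatty acid desaturase gene FAD6 (Cre13.g590500), whose chloroplast enzyme puts a further double bond into lipids, rose from 661, 567 and 533 normalised CPM to 3578, 2607 and 2885 (2.36 ± 0.21, adjusted p = 8.3e-14). The lowest heat library lay far above the highest pre-heat library.

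Of 9 genes of gluconeogenesis and the glyoxylate cycle 4 were called higher, most of them close to the threshold, and 8 had a change above 0. The median was 1.10, with the groups apart in 7. PCK1 (Cre02.g141400), whose enzyme makes phosphoenolpyruvate from oxaloacetate, went from 1574, 1854 and 1777 normalised CPM to 3761, 3832 and 4445 (1.21 ± 0.46, adjusted p = 0.032). FBP1 (Cre07.g338451), fructose-1,6-bisphosphatase, went from 199.7, 161 and 174 to 479, 577 and 634 (1.66 ± 0.38, adjusted p = 0.00034). The glyoxylate cycle enzymes ICL1 (isocitrate lyase, 1.11 ± 0.51, adjusted p = 0.079) and MAS1 (malate synthase, 1.20 ± 0.50, adjusted p = 0.052) did not pass the test, although their 3 heat libraries lay above all 3 pre-heat libraries (3680 to 4214 against 7755 to 9879 for ICL1). Both were called higher in the fits on the 45 libraries of 35 °C (adjusted p = 0.00049 and 0.00014) and on the compared libraries alone (7.3e-05 and 4.4e-05), at about the same change. With the letter as a replicate block in the edgeR fit both were called as well (adjusted p = 0.015 and 0.0088). CIS2 (1.02 ± 0.34), the citrate synthase of the microbody, and MDH2 (1.10 ± 0.17), a malate dehydrogenase, passed, and PYC1, pyruvate carboxylase, had −0.34 ± 0.17. With library size alone 1 of the 9 was called, and DESeq2, which differs in its test as well, called 6. PCK1 also lost its call when any 1 of 5 libraries was left out (1.13 to 1.26 on the log2 scale), and CIS2 without 4 h replicate C or pre-heat replicate A (0.89 and 0.98). ACS3 (0.99 ± 0.38), an acetyl-CoA synthetase, lay at the threshold.

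In central carbon metabolism 5 of 23 genes of glycolysis and the pentose phosphate pathway were called higher (median 0.31, or 0.037 with library size alone). TAL1 (Cre01.g032650), transaldolase of the pentose phosphate pathway, went from 713, 749.7 and 739 normalised CPM to 1991, 2551 and 2420 (1.66 ± 0.39, adjusted p = 0.00047). FAB1 (Cre01.g006950), annotated as fructose-1,6-bisphosphate aldolase, rose by 1.55 ± 0.18 and GAP1, a glyceraldehyde 3-phosphate dehydrogenase, by 1.44 ± 0.40. The 3 heat libraries of GAP1 were spread between 2234 (A) and 4713 (C). Of 24 tricarboxylic acid cycle genes 2 were called higher, MDH2 and SDH3 (1.02 ± 0.23), a subunit of succinate dehydrogenase that was no longer called with library size alone or without 4 h replicate B, 4 h replicate C or pre-heat replicate A (0.95 to 0.99). SDH3 also lost its call with the letter as a replicate block (0.997). Of 51 genes of mitochondrial electron transport 1 was called higher, although 49 had a change above 0 (median 0.37). An adjusted p under 0.05 on the higher side was found for 28 of the 51. With library size alone the median of this list was 0.099 and 0 were called. COX15 (1.36 ± 0.28, in neither list), an assembly factor of cytochrome oxidase, TAL1, GAP1 and HSP22A were the 4 called among the 9 genes that the study names for transcripts at this temperature, which it chose on these libraries.

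Few chaperone genes were called at 4 h. Of 11 large heat shock proteins 0 were called by edgeR or DESeq2, with 2 at an unadjusted p under 0.05, both lower, and a median of 0.11. HSP90A (Cre09.g386750), the cytosolic HSP90, stood at 1331, 1222 and 1086 normalised CPM before heat and 1934, 1979 and 1658 at 4 h (0.61 ± 0.42, adjusted p = 0.26), so that the groups were apart but the change did not pass the test. Of 19 chaperonins and co-chaperones 0 were called by either tool, with 1 at an unadjusted p under 0.05 and a median of −0.13. Small heat shock proteins showed 2 calls of 9, both at very low levels. HSP22A (Cre07.g318800) measured 0.332, 0.315 and 0.365 before heat and 4.99, 7.22 and 3.90 at 4 h (3.94 ± 0.89, adjusted p = 0.00026), and HSP22B (Cre07.g318850) had 3, 0 and 3 reads before heat and 41, 44 and 23 at 4 h. With library size alone 2 members were called lower as well. HSP22E (−1.14 ± 0.57, adjusted p = 0.11) and HSP22F (−1.34 ± 0.62, adjusted p = 0.083), the chloroplast pair, were not called in the fit on all 90 libraries. Both were called lower in the fits on the 45 libraries of 35 °C (adjusted p = 0.014 and 0.0057) and on the compared libraries alone (0.0059 and 0.0017), with changes of −1.33 to −1.11. The heat shock factor gene HSF1 was at 20.1, 17.4 and 16.1 before heat and 19.3, 17.9 and 17.6 at 4 h (0.03 ± 0.21), and HSF2 had a change of 0.73 ± 0.29 (adjusted p = 0.045) that stayed under a fold of 2. The chaperone lists of large and small proteins come from the study's own sheet.

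Iron assimilation held 2 called genes of 8 (median 0.53). FRE1 (Cre04.g227400), a ferric-chelate reductase of the cell surface, went from 5.76, 5.03 and 5.75 normalised CPM to 27.2, 22.2 and 39.6 (2.43 ± 0.42, adjusted p = 2.8e-06), and IRT2, a transporter of the ZIP family, changed by 1.09 ± 0.23. The periplasmic proteins FEA1 (−0.39 ± 0.48) and FEA2 (0.50 ± 0.46) and the iron permease FTR1 (0.57 ± 0.18) were not called, and with library size alone FRE1 was the 1 member left. IRT2 also lost its call without 4 h replicate B (0.96).

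The largest rises were mostly of genes without a name. Of the 15 largest rises 3 had a name in the annotation used here. Cre06.g283900 stood at 6.55, 9.86 and 7.21 normalised CPM before heat and at 72.1, 220.3 and 178 at 4 h (4.32 ± 0.51, adjusted p = 2.9e-10). Cre08.g364100 stood at 5.84, 24.6 and 20.0 and then at 59.5, 314 and 332 (3.81 ± 0.78), and Cre01.g027300 at 0.870, 0.839 and 1.32 and then at 5.75, 44.2 and 29.8 (4.701 ± 0.69). In all 3 genes heat library A was by far the lowest of the heat libraries. That the groups do not overlap follows from the rule that chose these genes. The named genes were CYP55B1 (Cre01.g007950), a cytochrome P450 of nitric oxide reduction, with 4.19, 5.77 and 6.07 before heat and 36.5, 68.5 and 83.6 at 4 h (3.56 ± 0.47), KIR2, a ketoacid isomerase-like protein (3.21 ± 0.36), and TEH6, an acyl-CoA thioesterase-like protein (2.82 ± 0.53). Among the falls Cre04.g226600 was the largest, from a mean of 87.5 ± 7.69 to 1.74 ± 1.29, and Cre17.g717900, also unnamed, went from 503 ± 65.0 to 12.03 ± 4.45.

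Single genes stood out in lists of redox, nitrogen and starch metabolism, which come from the study's own sheets. In redox defence PRX6_b, a peroxiredoxin, rose by 2.71 ± 0.43 and the 2-Cys peroxiredoxin PRX2 by 1.17 ± 0.19, both among 13 peroxiredoxins. The manganese superoxide dismutases split, as MSD2 rose from 131, 127 and 129 normalised CPM to 269, 312 and 297 (1.18 ± 0.17) and MSD3 fell from 11.6, 12.9 and 13.9 to 0.948, 0.183 and 0.272 (−4.74 ± 0.63). The catalase/peroxidase CAT2 fell by 2.28 ± 0.39. In nitrogen metabolism GDH1, glutamate dehydrogenase, went from a mean of 9.60 ± 1.36 to 28.4 ± 2.37 (1.56 ± 0.20), the 1 called gene of 8 for ammonium fixation, and RHP1, a Rhesus-type channel protein, rose by 1.23 ± 0.24. PRX2, MSD2 and RHP1 were not called with library size alone. In starch metabolism the synthase SSS1 rose from 83.1, 77.6 and 81.7 to 218, 201 and 219.5 (1.40 ± 0.20), and the starch-binding gene Cre03.g183300 rose by 2.08 ± 0.24. The study's starch list also holds GSL1/GTR12, a glucan synthase-like gene, which fell by 3.51 ± 0.74. Whether it takes part in starch synthesis was not tested.

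The lists not yet described held few called genes. Purine assimilation had 2 of 11 called higher (median 0.65), the Calvin-Benson cycle 2 of 19 (0.25), thioredoxins and related proteins 2 of 68 (0.15) and amino acid synthesis 1 of 29 (0.11), with 0 called lower in each. In 7 further lists 0 were called by edgeR. These were photorespiration (11 genes, 2 higher and 2 lower at an unadjusted p under 0.05), photosystem II assembly and repair (29 genes, 8 and 5), cytochrome b6f and ATP synthase (7 genes, 3 and 0), carotenoid synthesis (20 genes, 7 and 1), aminoacyl-tRNA synthetases (13 genes, 1 and 5), glutathione S-transferases (21 genes, 10 and 2) and fatty acid synthesis (25 genes, 7 and 4). Over all 15541 genes tested, 3301 were higher and 3723 lower at an unadjusted p under 0.05. At an adjusted p under 0.05, the first 4 of these lists had 2 and 2, 8 and 3, 3 and 0, and 5 and 0. The last 3 lists had 1 and 2, 7 and 2, and 5 and 1. DESeq2 called 2 glutathione S-transferases and 1 fatty acid synthesis gene higher and 0 in the others. Acetate activation had 0 of 4 called by edgeR, with 1 higher and 1 lower at an unadjusted p under 0.05 and 1 called by DESeq2.

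The 4 h sample was then set beside the samples taken before and after it at the same temperature. These comparisons share the 4 h libraries with the main one, so each is described on its own. Between 2 h and 4 h 37 genes were called higher (0.238%) and 28 lower (0.18%), together 0.418%. The total of 65 fell to 37 without 2 h replicate C and to 41 without 4 h replicate A. Of the 6 genes of the cobalamin and methionine cycle, 5 were among those higher at 4 h. This list was not the study's but was chosen with earlier results of these data known, so its counts are no independent evidence. CBA1 (Cre01.g036950), which takes part in vitamin B12 uptake, averaged 154 ± 6.81 normalised CPM before heat, 31.3 ± 13.3 at 2 h and 139 ± 20.3 at 4 h (4 h over 2 h 2.15 ± 0.25, adjusted p = 5.0e-09). SAH1, which hydrolyses S-adenosylhomocysteine, averaged 5600 ± 257, 1867 ± 781 and 6432 ± 684 in the same order (1.78 ± 0.27, adjusted p = 1.1e-05). MES1, a methionine synthase, averaged 1663 ± 345, 242 ± 78.7 and 834 ± 120 (1.79 ± 0.19, adjusted p = 7.1e-10). The list was thus low at 2 h, and by 4 h CBA1 and SAH1 overlapped with their pre-heat libraries while MES1 did not (−0.99 ± 0.19 against pre-heat, just inside the fold threshold). Against pre-heat 0 of the 6 were called by edgeR and by DESeq2, with 1 at an unadjusted p under 0.05.

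Other genes still fell between 2 h and 4 h. PHC21 averaged 279 ± 20.2 normalised CPM before heat, 136 ± 14.4 at 2 h and 10.7 ± 5.31 at 4 h (4 h over 2 h −3.67 ± 0.44, adjusted p = 1.3e-08). Cre17.g717900 averaged 503 ± 65.0, 196 ± 22.8 and 12.03 ± 4.45 (−4.02 ± 0.64), PHC15 averaged 483 ± 47.6, 95.4 ± 19.3 and 16.5 ± 9.87 (−2.53 ± 0.67), and FAP212 averaged 725 ± 92.6, 256 ± 5.96 and 48.1 ± 6.77 (−2.41 ± 0.62). Of the 35 wall genes 2 were called lower at 4 h than at 2 h (PHC21 and PHC15). Of the 122 cell cycle genes 5 were called higher, MINE1 among them (1.49 ± 0.42, adjusted p = 0.039).

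Between 4 h and 8 h 360 genes were called higher (2.32%) and 37 lower (0.238%), together 2.55%. The cell cycle list took 55 of its 122 members into the higher group, all 6 plastid division genes were called higher, and 9 of the 35 wall genes were. FTSZ1 averaged 7.09 ± 4.51 normalised CPM at 4 h and 39.0 ± 12.9 at 8 h (2.45 ± 0.41, adjusted p = 1.3e-05), against 62.2 ± 3.79 before heat. RIR2 went from 35.0 ± 1.55 to 174 ± 49.95 (2.31 ± 0.37) and PHC31 from 21.7 ± 10.7 to 111 ± 48.3 (2.35 ± 0.73, adjusted p = 0.021). Hence at 8 h these genes lay between their 4 h and their pre-heat levels. Lower at 8 h than at 4 h were FAD6 (−1.51 ± 0.20, from 3023 ± 500 to 1065 ± 62.2), FRE1 (−1.46 ± 0.40), LHCSR1 (−3.49 ± 0.96), PHC5 (−1.47 ± 0.26) and ISG-C4 (−1.47 ± 0.23). In PHC5 and ISG-C4 the fall seen at 4 h had thus gone further by 8 h. With library size alone the split was 498 higher and 14 lower.

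**Figure D4:**
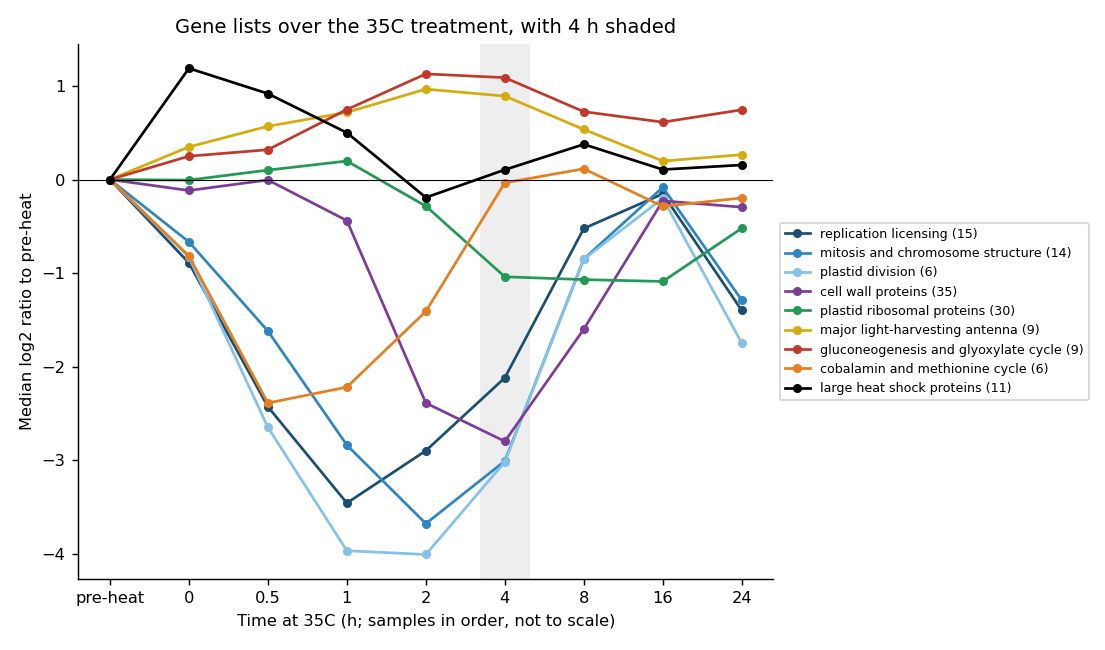
Median log2 ratio to pre-heat (group means of normalised CPM plus 0.5) of 9 gene lists at each sampling of the 35 °C treatment, in order but not to scale, with the 4 h sample shaded and 3 libraries per point. Licensing, mitosis and plastid division genes were lowest at 1 to 2 h and less low at 4 h, wall genes were lowest at 4 h itself (−2.80), plastid ribosomal proteins reached −1.04 at 4 h after 0.20 at 1 h, and the large heat shock proteins were highest on reaching 35 °C (1.19).

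The lists had their lowest medians at different times. Replication licensing had a median log2 ratio to pre-heat of −3.46 at 1 h, −2.90 at 2 h and −2.12 at 4 h. The wall list had −0.44 at 1 h, −2.39 at 2 h and −2.80 at 4 h. The plastid ribosomal proteins had −0.28 at 2 h and −1.04 at 4 h, and were still at −1.09 at 16 h. By these medians the division lists were less low at 4 h than at 2 h, the wall list was at its lowest, and the plastid ribosomal list stayed low up to 16 h. No test was made of the order itself.

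At 40 °C, the acute treatment, the 4 h sample was compared with its own pre-heat libraries, which shares no library with the comparison at 35 °C. There 1227 genes were called higher (7.9%) and 1303 lower (8.38%), together 16.3%. Of the genes called at 35 °C, 52.9% of the 367 higher ones (194) and 62.6% of the 960 lower ones (601) were called in the same direction at 40 °C, which is 15.8% and 46.1% of the lists at 40 °C. In the opposite direction lay 19 of the higher and 7 of the lower ones. LHCBM4 changed by 2.18 ± 0.27 at 40 °C, FAD6 by 2.40 ± 0.21 and CYP55B1 by 3.68 ± 0.47. The change at 40 °C differed from that at 35 °C by 0.01 ± 0.36 in LHCBM4, 0.04 ± 0.28 in FAD6 and 0.12 ± 0.62 in CYP55B1, so that none of these genes passed the test of the difference. All 6 plastid division genes were called lower at 40 °C too, as were 29 of the 30 plastid ribosomal proteins, 18 of the 33 flagellar genes and 20 of the 35 wall genes.

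Whether a gene responded differently to the treatments was tested as an interaction, with the 35 °C response subtracted from the 40 °C response, and 1407 genes were called above 0 (9.05%) and 683 below 0 (4.39%), together 13.4%. Here too the scaling moved the split, as 67.3% of the calls were above 0 with TMM and 90.6% with library size alone, while the median of all genes moved from 0.13 to 0.50. Genes of carbon metabolism were among those below 0. Of the 9 genes of gluconeogenesis and the glyoxylate cycle 6 were, as were 12 of 24 tricarboxylic acid cycle genes and 12 of 51 genes of mitochondrial electron transport. ICL1 averaged 3798 ± 318 normalised CPM before 40 °C and 1257 ± 278 after 4 h, a change of −1.60 ± 0.51 against 1.11 ± 0.51 at 35 °C (difference −2.70 ± 0.72, adjusted p = 0.0038). For MAS1 the difference was −2.87 ± 0.71, for PCK1 −2.25 ± 0.65, for CIS2 −2.29 ± 0.48, for GAP1 −3.14 ± 0.56 and for TAL1 −2.12 ± 0.55. PCK1, CIS2 and GAP1 were called higher at 35 °C and lower at 40 °C, as was CHL27/CRD1 (difference −2.23 ± 0.31).

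All 8 iron genes and all 6 genes of the cobalamin and methionine cycle also had a difference below 0. Both lists were chosen with earlier results of these data known, so these counts are no independent evidence. FEA2 averaged 428 ± 52.3 and 606 ± 137 normalised CPM before and after 4 h at 35 °C, and 173 ± 54.1 and 4.90 ± 0.615 at 40 °C (difference −5.64 ± 0.70, adjusted p = 1.6e-08). The pre-heat libraries of the treatments differed in some of these genes, with FEA1 at 2188 ± 119 before 35 °C and 429 ± 122 before 40 °C, and the part this has in the difference was not tested. CBA1 fell by 3.40 ± 0.26 on the log2 scale at 40 °C against −0.15 ± 0.24 at 35 °C (difference −3.26 ± 0.34, adjusted p = 1.3e-10). Among the genes with a difference above 0 was HLA3 (Cre02.g097800), the bicarbonate transporter of the carbon concentrating mechanism, with 66.1 ± 32.0 and 368 ± 78.6 at 40 °C (difference 4.06 ± 0.88, adjusted p = 0.0004). At 35 °C HLA3 was called lower (−1.58 ± 0.62, adjusted p = 0.038), but the call was lost without pre-heat library A (−0.43), without both A libraries (−0.66), without 4 h replicate B (−1.35) or C (−1.62) and in the fit on the 45 libraries of 35 °C (−1.54).

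**Figure D5:**
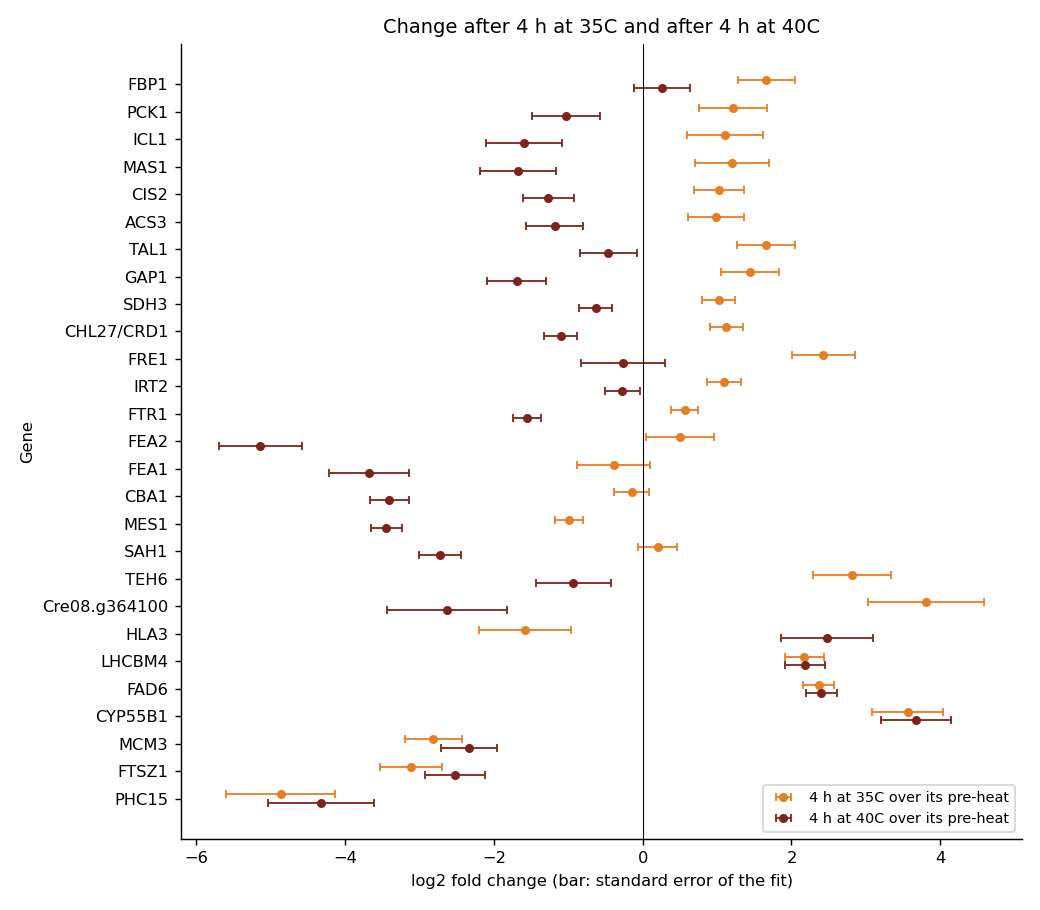
Log2 fold change of 27 genes after 4 h at 35 °C (orange) and after 4 h at 40 °C (dark red), each over its own pre-heat libraries, with the standard error of the fit as a bar. Carbon, iron and methionine cycle genes lie apart between the treatments (FEA2 0.50 and −5.14), HLA3 lies on opposite sides of 0, and LHCBM4, FAD6, CYP55B1, MCM3, FTSZ1 and PHC15 lie on the same side.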

How the data were processed

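Per the labels and the study's methods, polyA RNA of each sample was sequenced, and the authors used FastQC, STAR and HTSeq, versions not given in the sources used here, to deposit 1 table of raw read counts per gene for 90 libraries and 1 TPM file per library. The deposited TPM values weight reads by gene length. In them LHCBM1 holds 33.7% to 36.9% of all TPM before heat and 39.0% to 45.5% at 4 h with 1.20% to 2.03% of the reads, because the length behind its TPM is 0.798% of that of the median gene. All other TPM values shrink with it at 4 h, so levels are printed as normalised CPM. In the main calls TPM served only for the criterion of a difference of 1. It also entered the choice of named genes and the limma alternatives. With that criterion on TPM rescaled without LHCBM1, a setting added after seeing the data, 479 genes were called higher and 1136 lower.

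Counts were tested in edgeR 4.0.16 (R 4.3.3) with TMM factors and the quasi-likelihood F-test, 1 mean per group over all 90 libraries, after keeping genes with 10 reads in at least 9 libraries. Benjamini-Hochberg adjustment ran over all 15541 genes. Standard errors are from the same fit. The fit was tested on simulated data in which 200 genes changed, fewer than were called here. Whether its result carries over to the spread and the TMM factors of these libraries was not tested. Alternatives used DESeq2 1.42.0, limma 3.58.1 on log2(TPM + 1) and log2(TPM + 0.1), other scalings, filters and sample sets, and each library left out in turn.

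Replicates within each group differed by more than sampling noise (chi-square per degree of freedom 6.22 to 35.5), so none was counted as a duplicate. Named genes are the 15 largest rises and falls among called genes whose groups did not overlap in TPM (mean TPM of 5 or more in a group), up to 4 called members per list, every member of lists of up to 9, genes the study names, and the 6 largest differences each way in the other comparisons. The text takes most but not all of them. From longer lists the members with the largest change at 35 °C were taken. That the groups lie apart in such genes follows largely from this choice and is no further support. The genes, lists and tests were chosen with earlier results of these data known, and list membership came from the study's supplement, its annotation terms or picks by gene identifier. Gene names are those of the study's annotation columns.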

Additional observations from a re-analysis of the deposited data

Results flagged for a closer look

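Of the 103 genes named in the text, 34 changed differently after 4 h at 35 °C and at 40 °C in the interaction test of edgeR. The call asked for an adjusted p under 0.05 and a difference over 1 on the log2 scale, met by 13.4% of all genes tested. Some genes were named for a large difference in this same test or a large change at 35 °C. The count is therefore partly fixed by that choice and cannot be compared with the share over all genes. Of the 34 genes, 28 had a difference (40 °C minus 35 °C, log2) below 0 and 6 above 0. With library size alone 23 of the 28 and all 6 were still called, and TUB2, FBP1, COX15, IRT2 and KIR2 were not.

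Among genes of carbon use and respiration the difference was −2.70 for ICL1, −2.87 for MAS1, −2.25 for PCK1, −1.40 for FBP1, −2.29 for CIS2, −2.17 for ACS3, −2.12 for TAL1, −3.14 for GAP1, −1.65 for SDH3 and −1.22 for COX15. Among iron genes it was −2.69 for FRE1, −1.36 for IRT2, −2.12 for FTR1, −5.64 for FEA2 and −3.29 for FEA1. In the cobalamin and methionine cycle it was −3.26 for CBA1, −2.45 for MES1 and −2.92 for SAH1.

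The named and unnamed genes among the largest rises had −4.75 for Cre01.g027300, −4.62 for Cre06.g283900, −6.44 for Cre08.g364100, −1.36 for KIR2 and −3.75 for TEH6. Of the 15 largest rises at 35 °C 8 were called below 0 and 1 above 0, and 9 were called higher at 40 °C as well. These 15 genes were ranked on their change at 35 °C, which the difference subtracts, so a lean below 0 is partly built in. The peroxiredoxins PRX6_b and PRX2 had −1.95 and −2.11, CHL27/CRD1 had −2.23, LHCSR1 had −2.71 and TUB2 had −1.36.

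Above 0 lay HLA3 (4.06), Cre17.g717900 (2.66), PHC21 (2.49), MCM8 (2.04), ORC4 (1.26) and HTV1 (1.02). For the last 5 this was a smaller fall at 40 °C than at 35 °C.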

How the results depend on the processing

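The counts of genes called higher and lower at 4 h (367 and 960) moved by over 1.5 times under these settings. Higher calls were 210 with library size alone, 90 and 130 with limma on log2(TPM + 1) and log2(TPM + 0.1), 148 with limma after rescaling TPM without LHCBM1 (added after seeing the data) and 785 without the TPM criterion. Lower calls were 1940 with limma on log2(TPM + 0.1) and 1688 without the TPM criterion. Leaving out 1 library gave 319 to 429 higher and 916 to 1062 lower. For 4 h against 2 h (65 calls) the counts were 30 with limma on log2(TPM + 1), 151 without the TPM criterion and 37 to 82 without 1 library, the lowest without 2 h replicate C and 41 without 4 h replicate A. For 8 h against 4 h (397) they were 642 with limma on log2(TPM + 0.1), 998 without the TPM criterion and 325 to 440 without 1 library. For the difference between treatments (2090) they were 3250 with library size alone, 1005 with limma on log2(TPM + 1) and 1824 to 2236 without 1 library. For 40 °C at 4 h (2530) they were 4034 without the TPM criterion and 2442 to 2590 without 1 library.

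The letters were not treated as pairs, since the labels do not say what a letter marks and deviations from the group mean correlated by 0.19, −0.05 and 0.17 for letters A, B and C, so that not every letter correlated best with itself. Whether they pair in part cannot be told. With the letter as a replicate block, 367 genes were called higher and 969 lower, ICL1 (1.11, adjusted p = 0.015) and MAS1 (1.19, adjusted p = 0.0088) were called, and SDH3 (0.997) fell just under the fold threshold.

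Direction turned for 5 uncalled genes: HSF1 (0.03) gave −0.23 with library size alone, −0.32, −0.46 and −0.23 in the limma fits (TPM + 1, TPM + 0.1, rescaled) and −0.039 to 0.12 without 1 library (the lowest without pre-heat replicate C). SAH1 (0.20) gave −0.069, −0.32, −0.32 and −0.15 in the same order, and FEA2 (0.50) −0.035 and −0.036 in the first 2 limma fits. Without 1 library, CAH1 (−0.56) ranged from −1.30 (without 4 h replicate A) to 0.034 (without pre-heat replicate A) and LCIA (0.46) from −0.16 to 1.34 (the same libraries).

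Of the 81 named genes called at 4 h, none turned direction and 21 lost the call under at least 1 alternative, 12 of them with library size alone (CHL27/CRD1, HFO40, CIS2, IRT2, LHCBM2, LHCBM3, MDH2, MSD2, PCK1, PRX2, SDH3 and RHP1). CDC6 lost it without pre-heat replicate C (−2.90, adjusted p = 1.3e-07) and HSP22B without 4 h replicate B (4.18, adjusted p = 0.026), both by the TPM criterion alone. In limma on log2(TPM + 1), CDC6 (−0.97) and HSP22B (1.03, adjusted p = 0.12) lost it too. GAP1 (0.87), COX15 (0.61), SSS1 (0.83) and GDH1 (0.89) also lost it there, and lost it in limma fits only. Of the 22 named genes not called at 4 h, 6 gained a call under at least 1 alternative (ACS3, HSP22E, HSP22F, ICL1, MAS1 and MES1). The causes were not tested. HSP22A, HSP22B and other genes with few pre-heat reads are limited by depth.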

Other observations

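The genes of the carbon concentrating mechanism, which pumps inorganic carbon to Rubisco, differed between the lettered libraries within each group. Of 19 genes in the study's list 1 was called lower at 35 °C (HLA3), and replicate A was the highest library both before heat and at 4 h in 10 of the 19. CAH1, the periplasmic carbonic anhydrase, stood at 3061, 1297 and 1124 normalised CPM before heat (A, B and C) and at 2230, 727 and 760.0 at 4 h. LCIA, a bicarbonate channel of the chloroplast, stood at 237, 73.6 and 61.4 and then at 291, 95.1 and 126. CAH1 and LCIA were named after their values had been seen. Their change at 4 h was −0.56 ± 0.77 and 0.46 ± 0.74 on the log2 scale. The summed level of the list was 7482, 5612 and 5206 normalised CPM before heat and 7594, 4852 and 5616 at 4 h. At 40 °C 7 of the 19 genes were called higher after 4 h, LCIA among them (2.60 ± 0.78).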
